A study of Rattus norvegicus with 18 samples.

Results

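Cyclins, the cyclin-dependent kinases they switch on, and the replication factor *Mcm3* were followed in rat testis RNA after chronic sleep restriction (CSR). The 10 genes were chosen by symbol: the A cyclins *Ccna1* and *Ccna2*, the B cyclins *Ccnb1* and *Ccnb2*, the D cyclins *Ccnd2* and *Ccnd3*, *Ccne1*, the kinases *Cdk1* and *Cdk2*, and *Mcm3*, which is neither a cyclin nor a kinase. All 10 were found, each as 1 RefSeq transcript, among 7016 transcripts in the table. Earlier results of the same comparison were known when they were chosen, *Ccna1* and *Mcm3* among them, so their differences between CSR and control are given as a description, and no statement about them rests on a test.

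The RNA table holds 3 libraries of the CSR group and 3 of the control group, all from testes of male rats of the strain labelled wistar, aged 8 weeks. No other treatment, allele or agent is given for either group, and how sleep was restricted is not given in the sources used here. Whether the libraries stem from separate animals is not in the labels, and their spread may be technical. Whole testis was used, and in such RNA a smaller number of cells of a type and less RNA per cell cannot be told apart.

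A cell divides when cyclins, whose levels rise and fall in turn, bind and activate cyclin-dependent kinases, and the pairs then phosphorylate proteins of DNA replication and division. D and E cyclins act in the approach to DNA synthesis, A cyclins during it and on to division, and B cyclins with the kinase encoded by *Cdk1* at division itself. In the testis the same machinery drives the mitotic divisions of spermatogonia and the meiotic divisions of spermatocytes, and *Ccna1*, the germ cell A cyclin, is required for male meiosis in the mouse.

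The windows upstream of 5 members are printed because they carry the members with the highest levels (*Ccnb2*, *Ccnb1*, *Cdk1*) and those with the largest differences (*Ccna1*, *Mcm3*). They are the 250 bases before a start annotated for each gene, 5′ to 3′ on the strand of the gene, from RefSeq on GRCr8, and are described as sequence only. That start is the outermost one of the gene for *Ccnb1* and *Mcm3*, and lies 34905, 59 and 41 bases inside the annotated span for *Ccna1*, *Ccnb2* and *Cdk1*. Capitals mark CCAAT (the CCAAT box), TTTGAA (the cell cycle homology region, CHR) and TTTNNCGC (an E2F-type site), on either strand.
Ccna1, chr2:141393301-141393550, minus strand: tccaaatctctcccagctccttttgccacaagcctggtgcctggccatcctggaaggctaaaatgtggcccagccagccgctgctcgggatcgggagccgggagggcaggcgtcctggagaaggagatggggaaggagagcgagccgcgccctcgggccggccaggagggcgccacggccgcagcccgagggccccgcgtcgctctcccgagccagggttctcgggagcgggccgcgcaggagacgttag
Ccnb1, chr2:33655226-33655475, minus strand: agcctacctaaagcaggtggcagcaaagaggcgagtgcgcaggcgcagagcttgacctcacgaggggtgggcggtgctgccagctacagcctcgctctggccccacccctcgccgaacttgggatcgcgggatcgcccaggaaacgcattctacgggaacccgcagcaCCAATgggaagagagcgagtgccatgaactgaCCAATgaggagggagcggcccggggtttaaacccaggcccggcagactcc
Ccnb2, chr8:79981659-79981908, minus strand: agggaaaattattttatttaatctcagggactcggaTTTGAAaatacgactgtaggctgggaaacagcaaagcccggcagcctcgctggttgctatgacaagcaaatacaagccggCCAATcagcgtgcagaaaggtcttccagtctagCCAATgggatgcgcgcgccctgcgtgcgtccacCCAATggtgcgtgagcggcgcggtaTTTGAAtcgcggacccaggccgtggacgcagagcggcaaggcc
Cdk1, chr20:19265043-19265292, plus strand: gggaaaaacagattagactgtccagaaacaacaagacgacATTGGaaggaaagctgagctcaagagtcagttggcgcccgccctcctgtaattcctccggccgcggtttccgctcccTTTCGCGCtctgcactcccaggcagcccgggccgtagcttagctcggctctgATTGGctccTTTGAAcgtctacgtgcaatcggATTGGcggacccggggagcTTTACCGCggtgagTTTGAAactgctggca
Mcm3, chr9:30733747-30733996, minus strand: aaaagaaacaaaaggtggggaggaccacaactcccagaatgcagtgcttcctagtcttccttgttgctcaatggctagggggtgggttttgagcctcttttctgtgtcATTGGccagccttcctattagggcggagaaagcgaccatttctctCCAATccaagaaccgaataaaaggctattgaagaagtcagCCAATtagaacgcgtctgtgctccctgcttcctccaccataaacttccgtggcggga

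Windows were at hand for 8 of the 10 members, and *Ccna2* and *Ccnd2* had none. The search covered 300 bases, 250 before and 50 after the start, on both strands, and no matches of different motifs overlapped. A CCAAT box was found in 6 of the 8 windows, against 37.5% of all 33469 windows of this length, and 4 of the 8 held at least 2, against 11.2%. TTTGAA was found in *Ccnb2* and *Cdk1* (2 of 8, against 18.3%), each with 2 matches and each together with CCAAT boxes, a combination held by 7.41% of all windows. TTTNNCGC was found in *Cdk1* and *Mcm3* (2 of 8, against 4.92%), with both *Mcm3* matches reaching past the start and so not in capitals. Of the other motifs searched, the MYB-type TAACNG was found in *Ccnb1*, after its start (1 of 8, against 23.6%), and the CRE TGACGTCA in none (against 1.83%). The window of *Ccna1* held none of these letters. Other starts of *Ccna1*, the outermost one among them, were not searched.

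The levels are FPKM, fragment numbers normalised for transcript length and for the size of the library, which allows genes to be compared per length. Their depth is unknown, and between 3.69 and 3.97 FPKM was the median of each library. Values at 0 numbered 1000 to 1415 per CSR library and 275 to 423 per control library. Control libraries 1 and 2, whose submitter codes differ only in the last digit, were the closest pair, with a root-mean-square log2 difference of 0.645, against 0.737 to 0.955 in the other pairs. The labels do not say whether these 2 come from 1 animal, in which case the control group would hold fewer independent samples than the n = 3 given with its means. Control library 3 was about as far from control libraries 1 and 2 (0.773 and 0.737) as from CSR libraries 1 and 2 (0.740 and 0.749). From CSR library 3 it differed by 0.815.

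In CSR testes the B cyclins led the members, followed by *Cdk1*, *Ccna1* and *Ccne1*, and *Mcm3* was listed at 0. In control testes the B cyclins and *Cdk1* also led, with *Ccne1* next and *Ccna1* lowest. In CSR testes neighbours in the order had separate ranges from *Ccnb2* to *Ccnb1* to *Cdk1* and from *Ccna1* to *Ccne1* to *Cdk2*, while *Cdk1* and *Ccna1* overlapped, as did *Cdk2*, *Ccnd3*, *Ccna2* and *Ccnd2*. In control testes the ranges were separate down to *Mcm3*. From *Mcm3* through *Cdk2*, *Ccnd3* and *Ccna2* to *Ccnd2*, neighbours overlapped, and *Ccnd2* and *Ccna1* were separate.

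**Figure D1:**
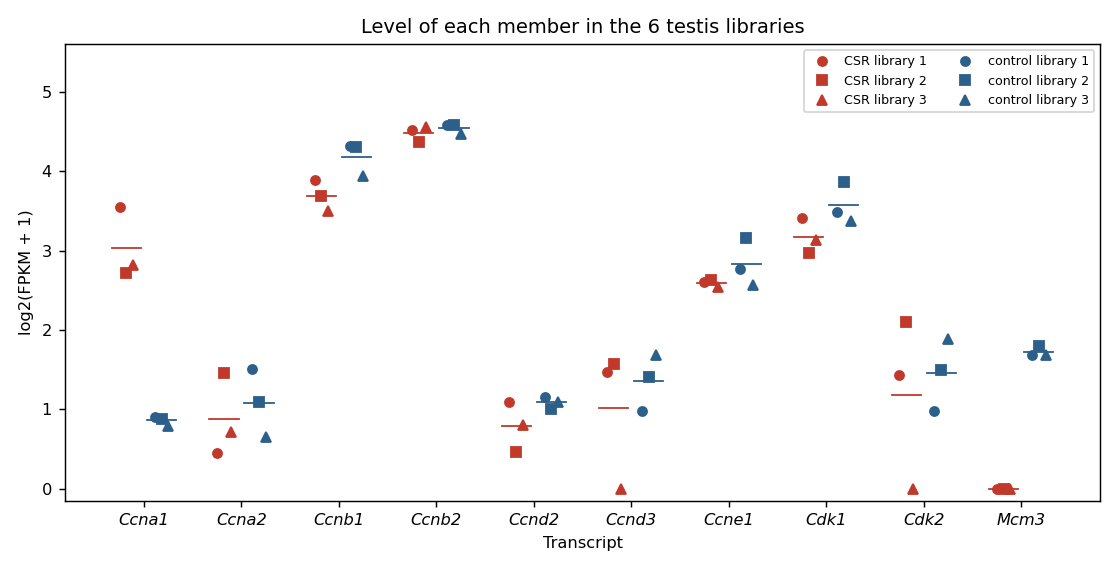
Level of each of the 10 members on the log2(FPKM + 1) scale, with 1 point per library (CSR left, control right) and a bar at the mean of each group. *Ccna1* is higher in each CSR library than in any control library, *Ccnb1* and *Mcm3* are lower in each CSR library, and the other 7 overlap.

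*Ccna1* (NM_001011949), the germ cell A cyclin, read 10.7, 5.59 and 6.06 FPKM in CSR libraries 1 to 3, against 0.875, 0.841 and 0.735 FPKM in control libraries 1 to 3. Every CSR library was above every control library, and the control values lay close together. The means were 7.46 ± 2.83 FPKM in CSR and 0.817 ± 0.0732 FPKM in control (SD, n = 3 each), a 9.13-fold ratio. The difference was 2.17 (standard error 0.26) as log2(FPKM + 1), where the added 1 shrinks the differences of low levels. The transcript stood at percentiles 57.7 to 71.0 of all transcripts in the CSR libraries and 15.5 to 17.4 in the control libraries. It passed the filter of at least 1 FPKM in at least 3 libraries through its CSR values alone, so among tested transcripts it had to differ. RefSeq annotates 19 transcripts of *Ccna1*, of which the table holds 1, and the value is that of this transcript and not of the whole gene.

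*Ccna2* (NM_053702), the A cyclin of dividing cells in general, read 0.368, 1.74 and 0.647 FPKM in CSR libraries, against 1.85, 1.13 and 0.573 FPKM in control libraries. The groups overlapped, with a difference of -0.21 (standard error 0.37), and the sign differed with quantile normalization and without CSR library 1 or control library 1. *Ccna1* was thus 3.21 to 29.2 times the level of *Ccna2* in the CSR libraries and 0.472 to 1.28 times in the control libraries. The wide range in CSR rests on the low *Ccna2* values.

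Germ cell stage markers were read beside *Ccna1* because the labelled groups could differ in them. The summed spermatocyte markers (7 of 13 genes measured, none at 0) lay between 334 and 397 FPKM in CSR and between 287 and 390 FPKM in control. Of these 7, 1 (*Hspa2*) had every CSR library above every control library and 1 (*Hormad1*) every one below. Over all transcripts tested, these shares were 8.96% and 12.6%. The summed markers of round spermatids (11 of 15, none at 0) spanned 748 to 840 FPKM in CSR and 626 to 776 FPKM in control. Of the 11 round spermatid markers, 5 had every CSR library above every control library and 0 every one below, against 8.96% above and 12.6% below over all transcripts tested, with a median log2 difference of 0.20. One of them, *Eqtn*, an acrosomal membrane protein, read 30.1, 30.0 and 14.2 FPKM in CSR, against 1.44, 2.27 and 2.00 FPKM in control, and was higher in CSR by limma (adjusted p = 0.0269). Those of elongating spermatids (12 of 14, none at 0) lay between 20604 and 23904 FPKM in CSR and at 12894, 14377 and 22614 FPKM in control libraries 1 to 3. In control libraries 1 and 2, *Prm1* was at 0.0934 and 0.0981 FPKM and *Prm2* at 0.750 and 0.407 FPKM. In control library 3 they were at 877 and 328 FPKM, and in every CSR library at 145 FPKM or more. Of the 13 transcripts tested, 2 had every CSR library above every control library and 1 every one below, against the same 8.96% and 12.6%. Control library 3 lay inside the CSR range in summed elongating spermatid markers and, at 287 FPKM, below every CSR library in summed spermatocyte markers. Its low spermatocyte sum rested mostly on *Sycp3*, at 60.1 FPKM, against 131 and 136 FPKM in control libraries 1 and 2. In *Tesmin*, *Spag6* and *Insl6* it was not the lowest control library. The part of these stages in the *Ccna1* difference was not tested.

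*Ccnb1* (NM_171991), the B cyclin whose pairing with the kinase drives entry into division, read 13.8, 11.8 and 10.2 FPKM in CSR libraries, against 18.8, 18.7 and 14.3 FPKM in control libraries. All CSR libraries were below all control libraries, with control library 3 nearest to CSR library 1. The means were 12.0 ± 1.80 FPKM in CSR and 17.3 ± 2.57 FPKM in control (SD, n = 3 each), a ratio of 0.692 and a log2 difference of -0.50 (standard error 0.16). The same held for 12.6% of all transcripts tested.

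*Ccnb2* (NM_001009470), the other B cyclin, had the highest level of the members in every library. It read 21.9, 19.6 and 22.5 FPKM in CSR libraries, against 23.0, 22.9 and 21.1 FPKM in control libraries. The groups overlapped, and the log2 difference was -0.06 (standard error 0.10), next to the median of all transcripts tested, also -0.06. The level of *Ccnb1* relative to *Ccnb2* was 0.631, 0.602 and 0.456 in CSR libraries, against 0.820, 0.817 and 0.679 in control libraries, without overlap. RefSeq names pseudogene copies of *Ccnb2* (2), *Cdk1* (1) and *Ccnd3* (1), whose reads the authors' mapping could have shared with the genes, so these levels are uncertain to that extent.

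*Cdk1* (NM_019296), the kinase that A and B cyclins activate for division, read 9.66, 6.85 and 7.78 FPKM in CSR libraries, against 10.2, 13.5 and 9.39 FPKM in control libraries. Only CSR library 1 reached into the control range. The means were 8.10 ± 1.43 FPKM in CSR and 11.0 ± 2.17 FPKM in control (SD, n = 3 each), a ratio of 0.733, with a log2 difference of -0.40 (standard error 0.19). Set against *Cdk1* within each library, *Ccnb1* overlapped between groups, at 1.43, 1.73 and 1.32 in CSR and 1.84, 1.39 and 1.53 in control. *Ccnb2* over *Cdk1* did not overlap, if only by a narrow margin, at 2.27, 2.87 and 2.89 in CSR and 2.25, 1.70 and 2.25 in control. *Ccna1* over *Cdk1* was 1.11, 0.816 and 0.779 in CSR, against 0.0856, 0.0623 and 0.0782 in control.

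**Figure D2:**
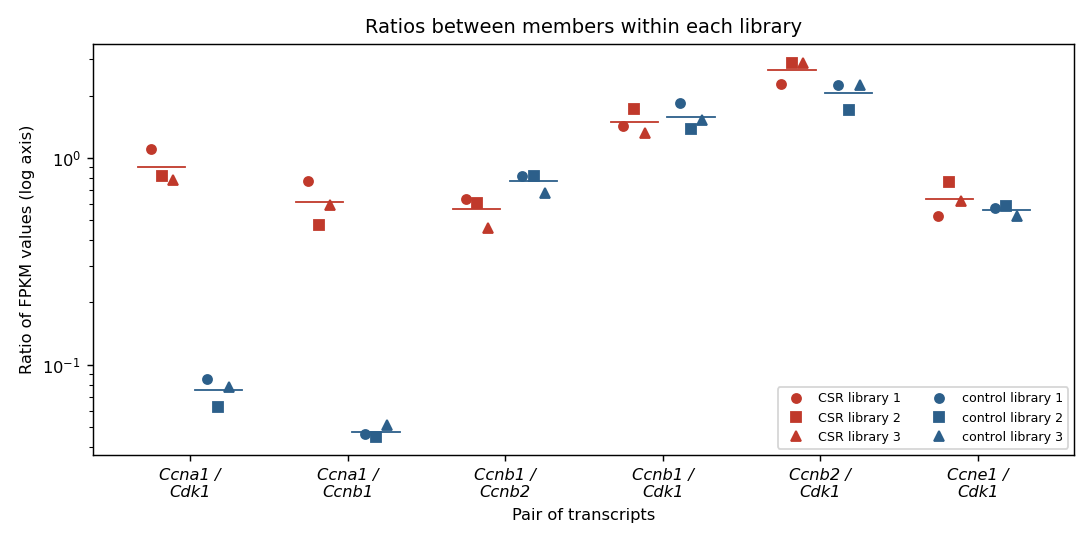
Ratios of FPKM values between pairs of members within each library, on a log axis, with 1 point per library (CSR left, control right) and a bar at the mean. *Ccna1* over *Cdk1* and over *Ccnb1* lies at 0.473 to 1.11 in CSR and 0.0449 to 0.0856 in control. *Ccnb1* over *Ccnb2* is lower in CSR without overlap. *Ccnb2* over *Cdk1* is higher in CSR by a narrow margin, the lowest CSR value being 2.27 and the highest control value 2.25. The other 2 pairs drawn overlap.

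*Cdk2* (NM_199501), the kinase partner of E and A cyclins around DNA synthesis and a protein needed for meiosis in mice, read 1.71, 3.28 and 0 FPKM in CSR libraries, against 0.975, 1.81 and 2.71 FPKM in control libraries. The groups overlapped widely, with CSR libraries holding both the highest and the lowest value. The log2 difference of -0.28 (standard error 0.57) turned to 0.31 without CSR library 3, in which the transcript is listed at 0. *Ccnd3* (NM_012766), a D cyclin, had the same shape, with 1.78, 1.97 and 0 FPKM in CSR and 0.976, 1.65 and 2.23 FPKM in control, and its log2 difference of -0.34 (standard error 0.48) turned to 0.16 without that library. Over the whole data, 358 transcripts were at 0 in CSR library 3 and above 0 in the other 5 libraries, against 163 and 225 for the other CSR libraries and 21 to 25 for control libraries. An exact 0 may be a failed estimate.

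*Ccnd2* (NM_022267), a D cyclin that spermatogonia use, read 1.13, 0.376 and 0.748 FPKM in CSR libraries, against 1.24, 1.01 and 1.14 FPKM in control libraries. CSR library 1 lay inside the control range and the other CSR libraries below it, with a log2 difference of -0.30 (standard error 0.26). Quantile normalization gave 0.26. Summed spermatogonial markers (5 of 14 measured) lay between 41.9 and 54.3 FPKM in CSR and between 40.2 and 54.0 FPKM in control, and 2 of them were at 0 in at least 1 library.

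*Ccne1* (NM_001100821), the E cyclin that pairs with *Cdk2* before DNA synthesis, read 5.08, 5.21 and 4.80 FPKM in CSR libraries, against 5.82, 7.93 and 4.90 FPKM in control libraries. Its CSR values lay close together, and control library 3 fell among them. The log2 difference was -0.24 (standard error 0.19). Control library 3 was the lowest of the control libraries in 7 of the 10 members, *Ccna1*, *Ccna2*, *Ccnb1*, *Ccnb2*, *Ccne1*, *Cdk1* and *Mcm3*. It was also the lowest control library in summed spermatocyte markers, at 287 FPKM, mostly through *Sycp3*, at 60.1 FPKM. The part of this low sum in the levels of the members was not tested. Without control library 3 the log2 differences were 2.14 for *Ccna1*, -1.74 for *Mcm3*, -0.62 for *Ccnb1*, -0.50 for *Cdk1* and -0.37 for *Ccne1*.

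*Mcm3* (NM_001191805), a subunit of the helicase ring that opens DNA for replication, had a listed value of 0 in each of the 3 CSR libraries, against 2.22, 2.47 and 2.21 FPKM in control libraries. No fold is given against values at 0, and on the log2(FPKM + 1) scale the difference was -1.72 (standard error 0.21). It passed the filter through its control values alone. Of 656 transcripts with a control mean from 2 to under 3 FPKM, 14 (2.13%) had the same pattern of zeros in each CSR library and a positive value in each control library. Over all 7016 transcripts the pattern was found in 202 (2.88%), and the opposite one in 1.

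Other subunits of the same ring were looked at after their values were seen. *Mcm7* read 30.1, 29.9 and 28.9 FPKM in CSR, against 31.1, 31.8 and 30.1 FPKM in control, and *Mcm6* read 3.78, 1.93 and 3.10 FPKM in CSR, against 4.06, 2.79 and 2.54 FPKM in control. *Mcm4*, below the filter, had zeros in each CSR library, against 0.796, 1.22 and 1.11 FPKM in control, whereas *Mcm2* was at 0 in 2 CSR libraries and in 1 control library. *Mcm6* and *Mcm7* were above 0 in every library.

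Over all 10 members, 9 had a lower mean in CSR and 1, *Ccna1*, a higher one. The median log2 difference was -0.29, against -0.06 over the 5657 transcripts tested, of which 56.0% were negative. All 10 passed the filter, *Ccna1* and *Mcm3* through 1 group only. All 10 members summed to 66.2, 56.5 and 52.8 FPKM in CSR libraries, against 66.0, 72.0 and 59.3 FPKM in control libraries, with overlap. Without *Ccna1*, left out with its values known, the sums were 55.5, 50.9 and 46.7 FPKM in CSR libraries. In control libraries they were 65.1, 71.1 and 58.6 FPKM, and both sums were made up mostly of *Ccnb2*, *Ccnb1* and *Cdk1*.

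The fit over all transcripts used limma with a threshold of 0.05 on the adjusted p, and it called 25 transcripts, 0.442% of those tested. Higher calls were 0.230% and lower calls 0.212%. With quantile normalization, 11 were higher and 6 lower, against 13 and 12. The members called were *Ccna1* and *Mcm3*, 2 of 10, and since earlier calls brought them to the list, nothing is read from that share. The groups did not overlap for 3 of the 10 members, against 21.5% of all transcripts tested. Neither gene was called with control libraries 1 and 2 averaged (adjusted p = 0.175 for *Ccna1* and 0.267 for *Mcm3* by limma), with a pseudocount of 0.1, with a filter on the mean, with the replicate block, or without CSR library 2 or 3 or control library 1 or 2, and *Mcm3* was also not called with quantile normalization or without CSR library 1. The log2 difference of *Ccna1* lay between 1.91 and 2.98 over the alternatives.

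**Figure D3:**
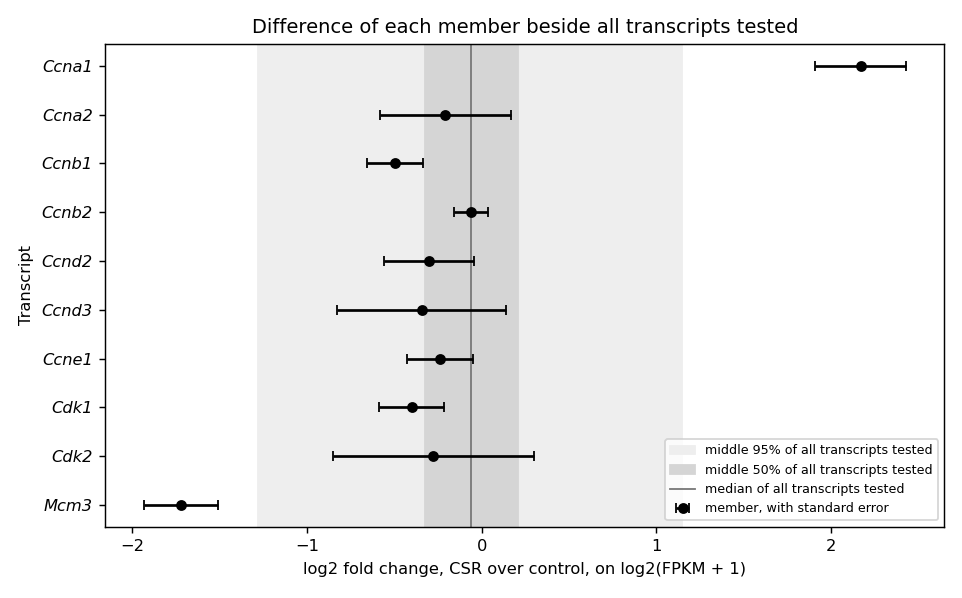
Difference of each member between CSR and control on the log2(FPKM + 1) scale (points, with the standard error of the fit), over bands for the middle 50% (-0.32 to 0.21) and middle 95% (-1.28 to 1.15) of all 5657 transcripts tested. *Ccna1* at 2.17 and *Mcm3* at -1.72 lie outside the wider band, and the other 8 inside it, all below 0.

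The sign of 4 low members differed between alternatives. Under all 17 alternatives the sign held for 6 members, *Ccna1*, *Ccnb1*, *Ccnb2*, *Ccne1*, *Cdk1* and *Mcm3*, where a value could be had. The groups of *Ccna1*, *Ccnb1* and *Mcm3* did not overlap, so for these only the changes of normalization could have turned the sign. For every member, the changed filters, the omitted mean-variance trend, the replicate block and the summed transcripts could not move the difference. The sign differed in at least 1 alternative for *Ccna2*, *Ccnd2*, *Ccnd3* and *Cdk2*, all of which turned positive with quantile normalization. *Ccna2*, *Ccnd3* and *Cdk2* also turned positive in at least 1 fit that left out 1 library.

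The transcripts most like each member were those with the smallest root-mean-square difference of mean-centred log2(FPKM + 1) values over the 6 libraries. For *Ccna1* these were *Ddx52* (0.176), *Map2k7* (0.289) and *Zfp362* (0.319), of which *Ddx52* read 7.58, 4.87 and 6.33 FPKM in CSR and 0.763, 0.850 and 0.801 FPKM in control. For *Ccnb1* they were *Kdm5a* (0.0281), *Appbp2* (0.0428) and *Ccnq* (0.0434), the last itself a cyclin by name. For *Cdk1* they were *Tollip* (0.0642), *Rnf181* (0.0719) and *Vps39* (0.0831), and for *Mcm3* *Pik3cb* (0.0898), *Dxo* (0.101) and *Cntrob* (0.102), all at 0 in the CSR libraries. The nearest to *Ccnb2* was *Cfap95* (0.0233), and to *Ccne1* *Mettl6* (0.0538).

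Other genes of the cell cycle were read in 9 lists of 244 genes, of which 128 were in the table and 108 transcripts were tested. None was called by limma in either direction, and 15 of the 108 had an unadjusted p under 0.05, against 13.2% of all transcripts tested. Their median log2 difference was -0.05, with 47 positive and 61 negative, and 23 (21.3%) had groups that did not overlap, against 21.5% of all tested. The lowest adjusted p, that of *Rfc4*, was 0.234. Leaving out control library 3 gave 3 calls of the 108, *Cks2* and *Pcna* lower and *Psmc3ip* higher in CSR, against 4.58% of all transcripts tested, and leaving out CSR library 2 gave 1, *Anapc4*, lower, against 0.247%.

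DNA replication genes, the functional group of *Mcm3*, had the lowest median of the 9 lists. Of 21 tested, 18 were negative and 3 positive, with a median log2 difference of -0.28, and 5 had all CSR libraries below all control libraries and 2 had all above, against 12.6% and 8.96% of all transcripts tested. *Rfc4*, a subunit of the clamp loader, read 27.6, 21.2 and 25.9 FPKM in CSR, against 35.1, 34.7 and 39.5 FPKM in control, with a log2 difference of -0.54 that did not pass. *Pcna*, the sliding clamp, read 53.9, 50.9 and 53.7 FPKM in CSR, against 77.6, 74.3 and 46.3 FPKM in control, so that control library 3 was below every CSR library. None of the 21 tested was at 0 in all CSR libraries, while *Mcm4*, of the same list and below the filter, was. Among the 18 negative ones, *Prim1*, *Rfc3*, *Orc6* and *Lig1* were at 0 in CSR library 3. *Gins1* was at 0 in CSR libraries 1 and 2, and *Rpa3* in CSR library 2 and control library 3.

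Of the lists close to the members in function, 10 other cyclins had a median log2 difference of -0.10 and 7 other cyclin-dependent kinases one of 0.05. *Ccnk*, a cyclin of transcription kinases, lay between 15.5 and 24.4 FPKM in CSR and between 17.9 and 23.0 FPKM in control, and *Cntd1*, a cyclin-like factor of meiotic crossing over, between 15.5 and 18.2 FPKM in CSR and between 16.6 and 17.8 FPKM in control. *Cdk11b* averaged 19.2 FPKM in CSR and 12.8 FPKM in control, and *Cdk19*, a kinase of the Mediator complex, 13.0 FPKM in CSR and 15.5 FPKM in control. The 9 inhibitors, partners and phosphoregulators had a median of 0.04. Among them *Cks2*, a small subunit that binds the kinases, read 21.4, 18.9 and 20.3 FPKM in CSR, against 32.4, 33.9 and 17.5 FPKM in control, with control library 3 below the CSR libraries as for *Pcna*. *Spdya*, a kinase activator that is no cyclin, averaged 14.9 FPKM in CSR and 13.8 FPKM in control.

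Regulators of transcription and of destruction gave no call either. The 5 pRB, E2F and MuvB regulators had a median log2 difference of 0.06. By the mean, *Lin37* was at 15.8 FPKM in CSR and 11.2 FPKM in control, and *E2f4* at 7.98 FPKM in CSR and 4.68 FPKM in control. Both overlapped between groups. *E2f4* read 6.62, 9.11 and 8.21 FPKM in CSR, against 5.08, 8.47 and 0.492 FPKM in control, so its low control mean rested mostly on control library 3. The 19 transcripts of the anaphase-promoting complex and SCF, ubiquitin ligases that destroy cyclins, had a median of -0.12, with 6 positive and 13 negative. *Ube2s* averaged 111 FPKM in CSR and 96.9 FPKM in control, and *Skp1* 68.7 FPKM in CSR and 73.2 FPKM in control.

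Genes of division, checkpoint and meiosis were spread around the median of all transcripts. The 17 mitotic kinases, spindle checkpoint and cohesin transcripts had a median log2 difference of 0.02, with *Plk1*, a mitotic kinase, at 35.0 FPKM in CSR and 31.6 FPKM in control and *Nuf2*, of the kinetochore, at 14.7 FPKM in CSR and 14.4 FPKM in control. The 6 DNA damage checkpoint transcripts had a median of 0.11, with *H2ax* at 44.6 FPKM in CSR and 31.3 FPKM in control and *Rad17* at 16.3 FPKM in CSR and 18.4 FPKM in control. The 14 meiosis transcripts had a median of 0.03, with 8 positive and 6 negative. *Sycp3*, of the synaptonemal complex, read 146, 109 and 109 FPKM in CSR, against 131, 136 and 60.1 FPKM in control. *Hspa2*, a chaperone of spermatocytes needed for the *Cdk1* kinase complex in the mouse, read 89.0, 96.0 and 82.3 FPKM in CSR. Its control values were 77.4, 81.6 and 73.0 FPKM, all below the CSR values. *Hormad1* went the other way without overlap, at 18.3, 11.8 and 16.5 FPKM in CSR, against 32.5, 29.0 and 20.4 FPKM in control. Of the 14, 1 was thus above and 1 below in every CSR library, against 8.96% and 12.6% of all transcripts tested. The log2 differences of the 14 meiosis transcripts lay between -1.15 and 0.29, none of them a call.

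**Figure D4:**
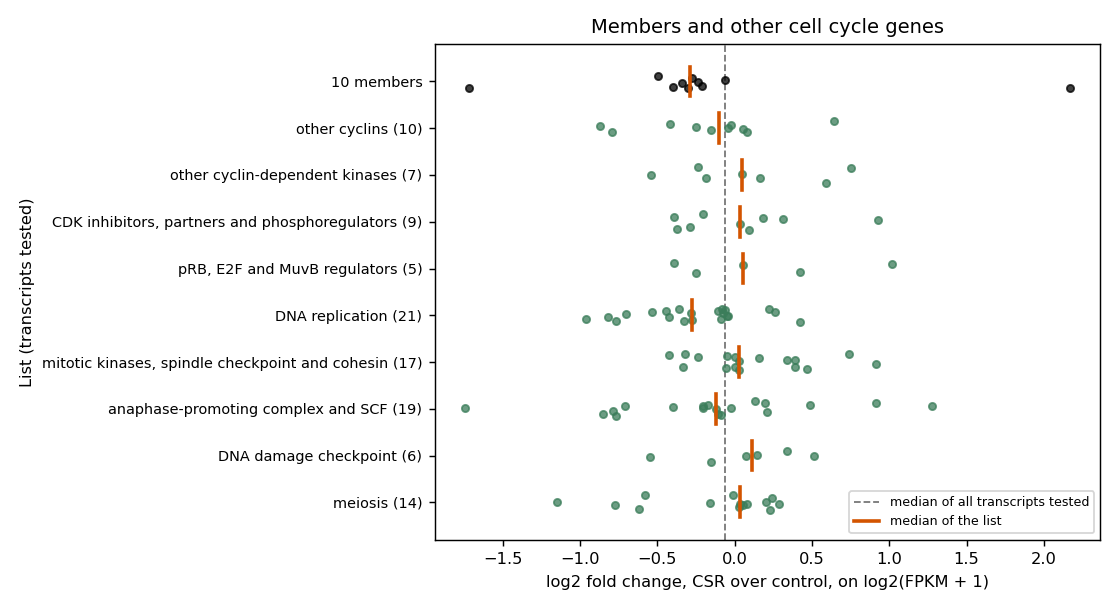
Difference between CSR and control on the log2(FPKM + 1) scale for the 10 members and for each tested transcript of the 9 cell cycle lists (1 point each, number tested in brackets), with the median of each list and, dashed, that of all transcripts tested. DNA replication genes have a list median of -0.28, next to -0.29 for the members, and *Ccna1* at 2.17 lies to the right of all points.

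Markers of cells other than germ cells were measured in both groups. Summed Sertoli cell markers (9 of 15 measured, 1 at 0 in some library) lay between 124 and 132 FPKM in CSR and between 130 and 142 FPKM in control, and Leydig cell markers (7 of 9) between 84.0 and 136 FPKM in CSR and between 87.1 and 111 FPKM in control. Peritubular myoid markers (8 of 9) lay between 20.1 and 27.0 FPKM in CSR and between 22.2 and 28.3 FPKM in control. Of these, 5 were at 0 in some library. *Myh11*, the highest, had every CSR library (15.8, 17.0 and 14.7 FPKM) above every control library (12.6, 10.8 and 14.2 FPKM). The collagen gene *Col1a1* was at 0 in each CSR library, against 2.30, 2.14 and 2.73 FPKM in control. Like *Mcm3*, it passed the filter through its control values alone, so nothing is read from its call by limma (adjusted p = 0.0421). Markers of macrophages and other immune cells (7 of 10) lay between 8.74 and 12.4 FPKM in CSR and 12.7 and 17.6 FPKM in control. These sums did not overlap, but 4 of the 7 markers were at 0 in some library. Of 4 tested, 1 had every CSR library below every control library, against 12.6% of all transcripts tested. Blood markers (2 of 4) lay between 3.02 and 25.5 FPKM in CSR and between 5.32 and 28.9 FPKM in control, *Cst8* was the epididymal marker measured (1 of 6), at 47.7 to 51.6 FPKM in CSR and 48.3 to 71.4 FPKM in control, and no endothelial marker of 5 was in the table. The part of these in the levels of the members was not tested.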

How the data were processed

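Testis RNA of 3 CSR and 3 control libraries was used, grouped by the labels' titles. The deposited values, made by the authors, are FPKM of RefSeq transcripts from poly(A) RNA. Trimmomatic, HISAT2 and StringTie with rn6 are named in the submitters' processing notes; the sources used here give neither their settings nor how transcripts were selected for the table. Symbols came from RefSeq (GRCr8) for 6911 of 7016 accessions. The depth of the libraries is unknown.

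The test was limma (version 3.58.1, R 4.3.3) on log2(FPKM + 1), two-sided, its variances following a trend with the mean. It covered 5657 transcripts that reached 1 FPKM in 3 or more libraries, with p-values adjusted after Benjamini and Hochberg and called under 0.05. The fit was tested on simulated data. The members and lists were chosen with earlier results of these data known. All members are named, with the 2 highest transcripts of each list, any list transcript called, and the 3 most similar profiles. Alternatives changed the pseudocount, filter, normalization, spread, libraries and replicate block. The 12 bisulfite libraries were not analysed here.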

Additional observations from a re-analysis of the deposited data

How the results depend on the processing

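The number of transcripts called over the whole table was 25. It was 11 with a pseudocount of 0.1, 13 with a filter on a mean of at least 1 FPKM, 16 among transcripts above 0 in all 6 libraries, 77 without the mean-variance trend and 7 with control libraries 1 and 2 averaged as 1 library. Leaving out 1 library gave 4 to 259, the highest without control library 3 and the lowest without control library 2; it was 7 without CSR library 3, 8 without control library 1 and 14 without CSR library 2. Of the 10 members 2 were called; the number was 0 with a pseudocount of 0.1, with the filter on the mean and with control libraries 1 and 2 averaged, 1 among transcripts above 0 in all libraries (where *Mcm3* has no value) and 1 with quantile normalization, and 0 to 2 on leaving out 1 library. Calls in the other cell cycle lists numbered 0, and 0 to 3 on leaving out 1 library. With the replicate number as a block, 0 transcripts and 0 members were called by limma; the numbers pair the libraries by label only, since deviations of same-numbered libraries from their group means correlated at 0.03, 0.01 and 0.04. Of 166 member differences under alternatives, 156 moved by less than 1 SD within groups and 10 by more, of which the largest was -4.58 for *Mcm3* with a pseudocount of 0.1. The 156 include settings that cannot move a member's difference, so this number does not measure stability. Those settings are the changed filters, the omitted mean-variance trend, the replicate block and the summed transcripts. None of the differences of *Ccna1* and *Mcm3* changed sign, which only the changes of normalization could have done, as their groups did not overlap. The cause of the changes in calls and differences was not tested. With 3 libraries a group and unknown depth, levels near 1 FPKM are the least certain.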

Other observations

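Zeros in a single library were also found among the other cell cycle genes, a look taken with the values known. Of 131 transcripts of the 9 lists, 8 were at 0 in CSR library 3 and above 0 in the other 5 libraries, *Ccnf*, *Lig1*, *Mad2l1*, *Mlh3*, *Orc6*, *Prim1*, *Pttg1* and *Rfc3*. The same held for 3 in CSR library 1, 2 in CSR library 2, 1 in control library 2 and 0 in control libraries 1 and 3. Over all 7016 transcripts the numbers were 358 in CSR library 3, 225 in CSR library 1 and 163 in CSR library 2. In control libraries they were 21 to 25. Nothing particular to cell cycle genes is read from these zeros.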
